A study of Mus musculus with 12 samples.

Results

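Gene expression in mouse hearts was compared between 6 libraries from mice given vitamin B12 in the drinking water and 6 libraries from mice on normal water, out of 12 libraries in all. Members were taken from the labels alone: the 3 Sham+B12 and 3 I/R+B12 libraries made up the B12 arm, and the 3 Sham and 3 I/R libraries the water arm. Surgery entered as an additive covariate with no interaction term, so each value is the B12 difference averaged over sham-operated and injured hearts. All 4 groups were WT mice with left thoracotomy. In the I/R groups the left anterior descending coronary artery was tied for 45 min and then reopened for 24 h of reperfusion, whereas in the Sham groups it was not occluded. The Sham+B12 and I/R+B12 mice received B12 in their drinking water (50 mg/L, 4 mL taken per day) over the 7 days that preceded the operation, and the Sham and I/R mice drank normal water. Strain, sex and age are not given in the sources used here. Neither is it stated that each library came from 1 mouse, so p-values measure only the spread between these libraries. The question was whether B12 before surgery shifts the heart transcriptome in a way that does not depend on the surgery.

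Vitamin B12 is the cofactor of methionine synthase, which remethylates homocysteine in the cytosol with a methyl group from folate, and of methylmalonyl-CoA mutase, which passes propionate-derived carbon into the citric acid cycle in mitochondria. The vitamin reaches cells bound to transcobalamin, is taken up through the receptor CD320 and is released from lysosomes before conversion to its 2 cofactor forms. Collagens, which take up most of the account below, are made in the heart mainly by fibroblasts. Fibrillar types I, III and V give tensile strength, type VI forms beaded microfilaments around cells, type XV sits at the outer face of basement membranes, and type IV is the network of the basement membrane itself, made largely by endothelial and mural cells.

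Libraries held an estimated 23.9 to 28.0 M fragments, and between 11490 and 12612 genes reached 1 FPKM (fragments per kilobase of transcript per M fragments). Cardiomyocyte genes gave summed levels of 39400 to 64250 FPKM in every group, with no tested marker at 0, as the label heart implies. 4 libraries stood apart from the others of their group. On the first principal component, which held 38.8% of the variance, the library labelled Sham 3 lay at 1.2 and the other Sham libraries at -28.1 and -25. The library labelled I/R 3 lay at -23.1, among the Sham libraries, against 20.8 and 16.3 for the other I/R libraries. On the second component, with 25.3% of the variance, the library labelled I/R+B12 1 lay at -26.8 beside I/R 1 and I/R 2 (-42.3 and -36.4), and the other I/R+B12 libraries lay at 26.1 and 46.2. The library labelled I/R+B12 2 lay at 73 on the first component, against 21.9 and 25.2 for the others of its group, and had the lowest median-ratio factor of all, 0.838. The labels were kept as given, and results are given with and without these libraries.

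Across the 13001 tested genes of 55487 in the table, no gene passed an adjusted p of 0.05 for B12 against water in limma's moderated test with Benjamini-Hochberg adjustment (0% called), and the smallest adjusted p was 0.392. Before adjustment 1588 genes (12.2% of those tested) had a p under 0.05, 1490 of them lower with B12 (11.5%) and 98 higher (0.754%). The differences were thus lopsided: 9861 genes (75.8%) were lower with B12, and the median gene differed by -0.14 on the log2(FPKM + 1) scale, on which all differences below are given and which understates differences of genes at low FPKM. This lopsidedness depended on the scaling. After each library was divided by its median ratio to the geometric mean library, the median difference was -0.01, 51.1% of genes were lower, and 1012 genes had an unadjusted p under 0.05, of which 571 were lower (4.39% of those tested) and 441 higher. The median-ratio factors themselves ran from 1.00 to 1.18 in water libraries and from 0.838 to 1.11 in B12 libraries, and mitochondrially encoded transcripts took 18.3% to 21.7% and 19.8% to 23.02% of the summed FPKM. The part of these library measures in the gene differences was not tested. Differences are therefore given with the value after median-ratio scaling where a direction depends on it, and most list medians are also given relative to the median gene.

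**Figure D1:**
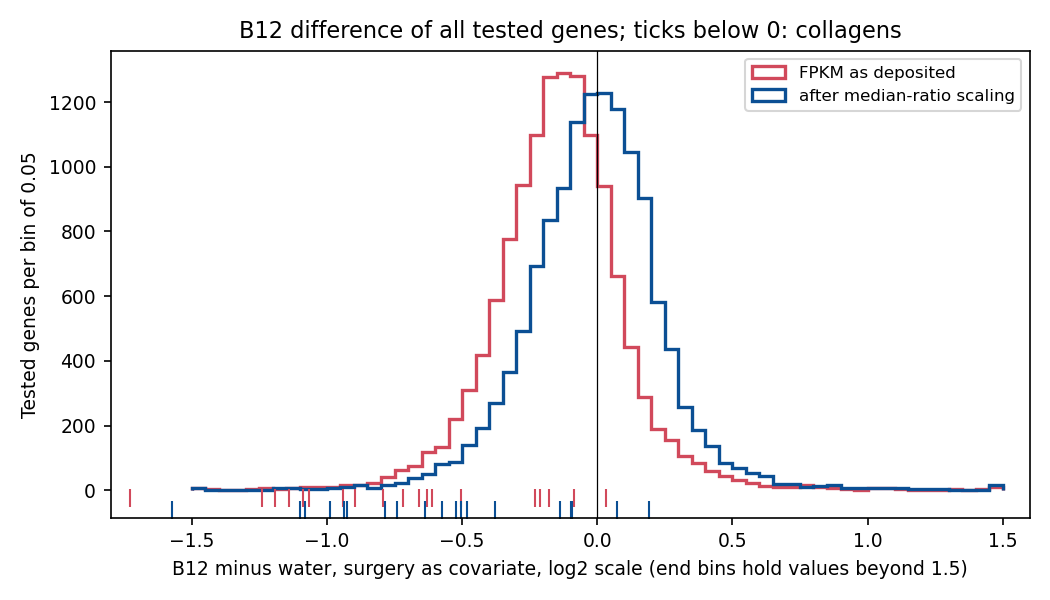
Distribution over 13001 tested genes of the B12 difference with surgery as covariate, on a log2 scale, for FPKM as deposited (red line) and after median-ratio scaling (blue line), with ticks below 0 for the 19 tested collagens. The whole distribution moves from a median of -0.14 to -0.01 with the scaling, while most collagens stay in the left tail under both.

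The collagens were lower with B12 in both surgeries. Of 24 listed collagen genes 19 were tested, since 5 did not reach 1 FPKM in 3 libraries. With B12, 18 of the 19 were lower, against 75.8% of all tested genes, and 13 were lower at an unadjusted p under 0.05, against 11.5%. After median-ratio scaling 12 were lower at that p, against 4.39% of all tested genes. None passed the adjustment over all genes. The median difference over the 19 was -0.72, which is -0.58 relative to the median gene, and it was -0.57 after median-ratio scaling, with 17 lower. Within sham-operated hearts the median was -0.50 and within injured hearts -1.09, where the medians of all genes were -0.07 and -0.21. In all, 15 of 19 were lower with B12 in both surgeries, against 47.5% of all tested genes. With Sham 3 and I/R 3 left out, the median was -0.75 with 17 lower in both surgeries, without I/R+B12 1 it was -0.82 with 15, and leaving out I/R+B12 2 gave -0.61.

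For 19 of the 24 collagen genes a promoter was found in RefSeq (build GRCm38.p6), with 21 start sites between them. Those of 4 genes described below, from fibril-forming, type VI and type XV collagens, are printed, each as the 250 bases before the start site, in the gene's own direction. They are Col3a1 (chr1:45311288-45311537, plus strand), Col1a2 (chr6:4505368-4505617, plus strand), Col6a1 (chr10:76726045-76726294, minus strand) and Col15a1 (chr4:47207762-47208011, plus strand). Capitals mark a CCAAT box (CCAAT, or ATTGG on the other strand) or a TATA box (TATAAA, or TTTATA on the other strand).
Col3a1: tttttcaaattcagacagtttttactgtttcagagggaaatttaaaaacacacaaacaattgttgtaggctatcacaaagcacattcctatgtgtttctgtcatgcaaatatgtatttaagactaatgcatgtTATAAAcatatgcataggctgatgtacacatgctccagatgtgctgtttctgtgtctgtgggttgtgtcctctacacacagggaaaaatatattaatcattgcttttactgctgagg
Col1a2: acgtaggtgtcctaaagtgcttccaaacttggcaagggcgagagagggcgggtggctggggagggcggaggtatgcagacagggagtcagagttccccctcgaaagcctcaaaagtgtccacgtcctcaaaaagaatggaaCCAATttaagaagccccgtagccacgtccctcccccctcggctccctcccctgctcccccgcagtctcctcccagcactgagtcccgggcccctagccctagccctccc
Col6a1: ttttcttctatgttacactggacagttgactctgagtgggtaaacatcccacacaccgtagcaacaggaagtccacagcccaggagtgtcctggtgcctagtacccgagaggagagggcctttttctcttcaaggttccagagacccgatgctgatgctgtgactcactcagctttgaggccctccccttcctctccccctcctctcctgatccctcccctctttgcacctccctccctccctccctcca
Col15a1: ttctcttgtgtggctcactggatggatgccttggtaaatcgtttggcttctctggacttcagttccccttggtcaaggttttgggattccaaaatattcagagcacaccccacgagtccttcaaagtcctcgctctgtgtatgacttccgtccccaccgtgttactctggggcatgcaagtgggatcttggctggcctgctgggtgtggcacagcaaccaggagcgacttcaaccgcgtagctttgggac
Col3a1 carries a TATA box, Col1a2 carries a CCAAT box, and these letters are in neither of the other windows. CCAAT was found on either strand in 8 of the 21 collagen windows and in 33.8% of all 32851 promoter windows of this length. TATAAA was found in 1 of the 21 and in 12.4% of all. In the 12633 windows of tested genes the shares were 34.8% for CCAAT and 6.88% for TATAAA. No printed window holds both motifs, so they do not overlap there, and a match is a description of the letters, not of binding.

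Col6a1 (ENSMUSG00000001119, chromosome 10, 76708792 to 76726168 on GRCm38), a chain of type VI collagen, had the smallest p of the collagens. Its FPKM was 31.99, 47.92 and 38.01 in Sham, 23.66, 26.49 and 31.53 in Sham+B12, 40.53, 31.69 and 50.15 in I/R, and 22.54, 15.08 and 18.51 in I/R+B12. As deposited, all 6 B12 libraries lay below all 6 water libraries. After division by the median-ratio factors (0.968 for Sham+B12 3 and 1.00 for Sham 1), Sham+B12 3 came above Sham 1, so the arms overlapped. The difference was -0.79 ± 0.17 (SE, 95% interval -1.15 to -0.43, unadjusted p = 0.000424, limma adjusted p = 0.392). Its partner chain Col6a2 had FPKM of 33.53, 50.77 and 37.81 in Sham, 24.8, 28.57 and 32.8 in Sham+B12, 43.72, 36.02 and 50.98 in I/R, and 24.8, 13.7 and 13.76 in I/R+B12, again without overlap between the arms and with a difference of -0.90 ± 0.20. This absence of overlap holds as deposited, since after median-ratio scaling Sham+B12 3 came above Sham 1 for Col6a2 too. Col6a1 and Col6a2 lie next to each other on chromosome 10.

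Col15a1 (ENSMUSG00000028339, chromosome 4, 47208161 to 47313167), the type XV chain, had FPKM of 33.24, 52.56 and 31.13 in Sham, 24.1, 22.88 and 27.53 in Sham+B12, 49.86, 34.37 and 57.66 in I/R, and 21.73, 15.44 and 9.53 in I/R+B12. It too was lower in all 6 B12 libraries than in all 6 water libraries, by 1.09 ± 0.24 on the log2 scale. In the fibril-forming chains Col3a1 and Col1a1 the B12 libraries lay below all water libraries in I/R but not in sham. Col3a1 (ENSMUSG00000026043, chromosome 1, 45311538 to 45349706), the type III chain abundant in early scar, had FPKM of 54.87, 136.73 and 65.03 in Sham, 30.72, 56.85 and 59.78 in Sham+B12, 188.4, 180.68 and 128.7 in I/R, and 46.5, 15.85 and 18.1 in I/R+B12. The sham groups overlapped and the I/R groups did not, and the averaged difference of -1.73 ± 0.41 was made of -0.73 in sham and -2.73 in I/R. Groups without overlap, in either direction, were seen for 3021 of the 13001 tested genes in I/R and for 1368 in sham.

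Col1a1 (ENSMUSG00000001506, chromosome 11, 94936224 to 94953042), the main chain of type I collagen, followed the same order: 21.89, 34.7 and 32.37 FPKM in Sham, 15.24, 20.2 and 25.31 in Sham+B12, 60.04, 44.81 and 37.99 in I/R, and 21.27, 9.04 and 11.83 in I/R+B12. Its difference was -1.14 ± 0.27, that of its partner Col1a2 was -0.94 ± 0.24, and that of the type V chain Col5a1, named after its values were seen, was -1.07 ± 0.26. Of the 19 collagens, 4 (Col6a1, Col15a1, Col6a2 and Col5a1) had, as deposited, every B12 library below every water library within both surgeries. This held for 165 of all tested genes (1.27%). After median-ratio scaling Col6a1 and Col6a2 overlapped in sham, and 48 of all tested genes (0.369%) had that separation.

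**Figure D2:**
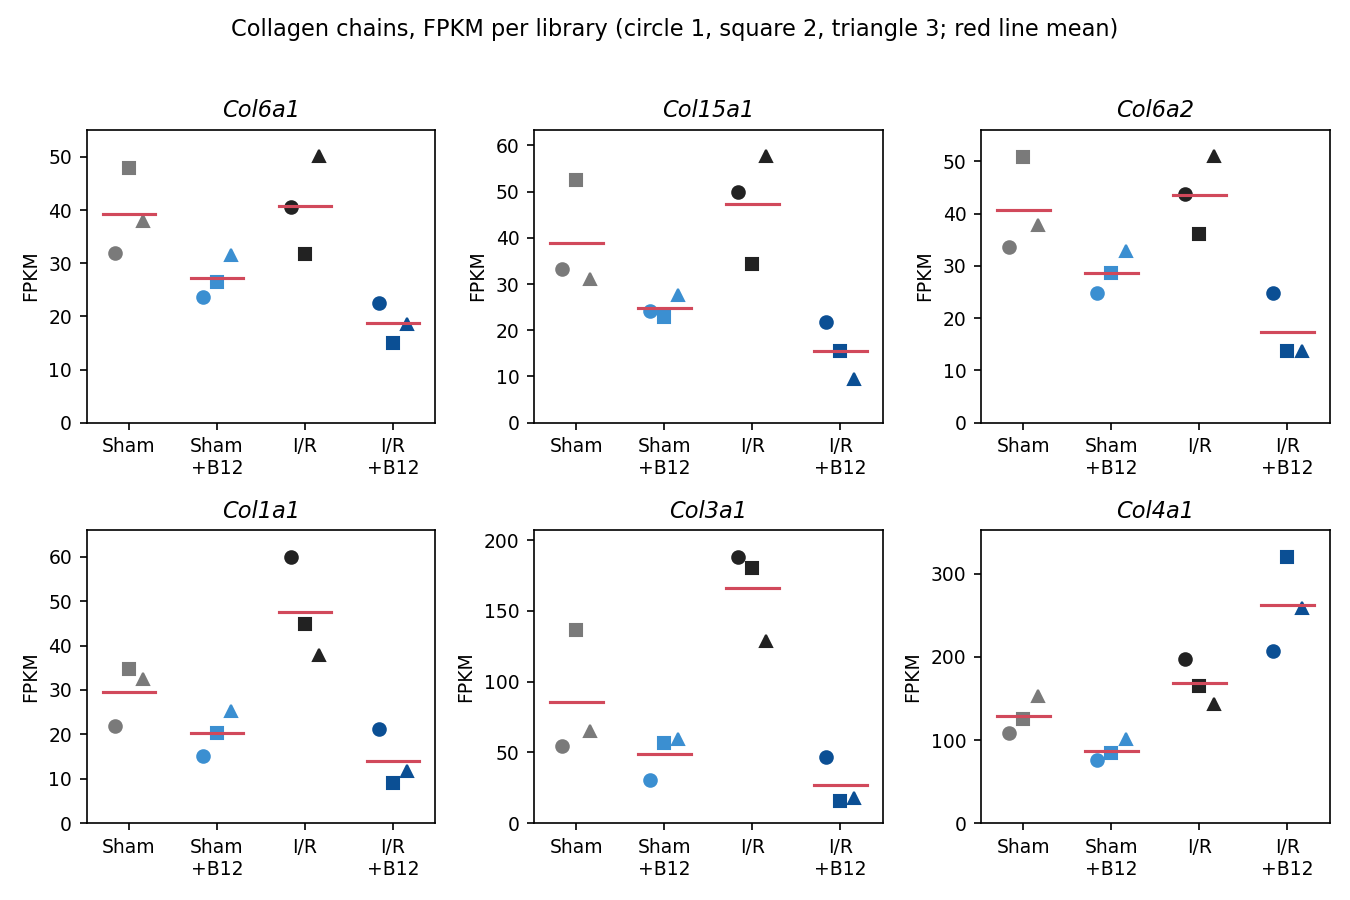
FPKM of 6 collagen chains in each library (vertical axes from 0, in FPKM), by group, with 1 symbol per library and a red line at the group mean of 3. In Col6a1, Col15a1 and Col6a2 all B12 libraries sit below all water libraries, Col1a1 and Col3a1 separate in I/R alone, and Col4a1 sits lower with B12 in sham and higher in I/R.

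The basement membrane chains Col4a1 and Col4a2, named after their values were seen, went another way. Col4a1 (ENSMUSG00000031502, chromosome 8, 11198423 to 11312826) had 107.99, 125.62 and 152.7 FPKM in Sham and 75.56, 84.51 and 100.72 in Sham+B12, but 197.83, 165.17 and 143.73 in I/R and 207.58, 320.46 and 258.82 in I/R+B12. B12 libraries were thus all lower in sham and all higher in I/R, with differences of -0.56 and 0.62 and an average of 0.03 ± 0.21. Col4a2, which starts beside it in the opposite direction, differed by -0.60 and 0.43. The interaction of B12 with surgery was 1.18 for Col4a1 and 1.02 for Col4a2 (limma adjusted p = 0.387 for both), so this difference between surgeries did not pass either.

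Fibroblast markers were lower together with the collagens. All 14 listed fibroblast genes were tested and all 14 were lower with B12, against 75.8% of all tested genes. At an unadjusted p under 0.05, 6 of the 14 were lower, against 11.5% of all tested genes. The median was -0.34 (-0.20 relative to the median gene, -0.19 after median-ratio scaling). The list shares Col1a1, Col1a2 and Col3a1 with the collagens. Its summed level was 1623 to 1974 FPKM in Sham, 1458 to 1590 in Sham+B12, 1543 to 1970 in I/R and 1048 to 1242 in I/R+B12, with no tested marker at 0 throughout a group. Decorin (Dcn), a small proteoglycan that binds collagen fibrils, had 355.22, 497.76 and 434.28 FPKM in Sham, 312.63, 382.85 and 365.7 in Sham+B12, 395.89, 424.74 and 504.18 in I/R, and 298.38, 280.24 and 315.32 in I/R+B12. Its difference was -0.41 ± 0.11. In whole hearts fewer cells of a type and less RNA per cell cannot be told apart, and the part of fibroblast content in the collagen differences was not tested.

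Among 38 genes of matrix processing and matricellular proteins 30 were lower, a share near the 75.8% of all tested genes. At an unadjusted p under 0.05, 11 of them were lower (28.9%, against 11.5% of all tested genes) and 1 was higher. The median was -0.30, or -0.17 relative to the median gene. The 4 with the smallest p were periostin (Postn, a matricellular protein of activated fibroblasts, -0.72 ± 0.18), Dcn, the crosslinking enzyme Loxl2 (-0.57 ± 0.15) and biglycan (Bgn, a proteoglycan, -0.45 ± 0.12). Postn had 15.36, 20.2 and 20.43 FPKM in Sham, 8.84, 14.03 and 14.22 in Sham+B12, 36.38, 18.62 and 25.2 in I/R, and 14.52, 15.94 and 11.21 in I/R+B12. As deposited it was separated in both surgeries, as were 165 of all tested genes in the same direction (1.27%). After division by the median-ratio factors (0.838 for I/R+B12 2 and 1.125 for I/R 2), I/R+B12 2 came above I/R 2. None of the 4 genes passed the adjusted test (limma adjusted p = 0.392 for each).

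Monocyte and macrophage genes had medians below that of all genes, with lower values in injured hearts, whereas neutrophil genes did not. Of 16 genes of inflammatory monocytes and macrophages 13 were lower, a share near the 75.8% of all tested genes, and 4 of them had an unadjusted p under 0.05 against 11.5%. Their median was -0.78 (-0.64 relative to the median gene), with -0.32 in sham and -1.09 in I/R, and it was -0.52 without I/R+B12 3. Of 13 neutrophil genes 8 were higher, against 3140 of all 13001 tested genes, and none had an unadjusted p under 0.05. The neutrophil median was 0.04, made of -0.26 in sham and 0.84 in I/R. Leaving out I/R 3 turned the median over both surgeries to -0.27 and leaving out I/R+B12 2 to -0.10. Ccr2, the chemokine receptor that brings monocytes to injured tissue, had 0.77, 3.57 and 1.65 FPKM in Sham, 0.54, 1.1 and 0.61 in Sham+B12, 7.53, 6.89 and 3.44 in I/R, and 2.28, 1.04 and 0.25 in I/R+B12 (-1.20 ± 0.31). Lyz2, lysozyme of myeloid cells, differed by -0.93 ± 0.41, made of -0.01 in sham and -1.85 in I/R. The dendritic cell lectin Cd209a, named after its values were seen, had the smallest p of all tested genes (0.000252, difference -0.94 ± 0.18) at a mean under 1 FPKM. The summed level of the list ran from 171.2 to 807.3 FPKM in I/R+B12 and from 535.1 to 1308 in I/R, which overlap.

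Resident macrophage genes showed the contrast between surgeries more sharply. Of 16 markers 14 were lower, against 75.8% of all tested genes, with a median of -0.47 (-0.33 relative to the median gene). The median was 0.09 in sham but -1.11 in I/R. The complement subcomponent gene C1qa, made by these cells, had 113.55, 141.99 and 78.75 FPKM in Sham, 96.33, 119.39 and 102.65 in Sham+B12, 152.73, 146.37 and 129.23 in I/R, and 98.47, 36.16 and 57.71 in I/R+B12. The summed marker level was 443.8 to 738.4 FPKM in Sham, 553.2 to 733.3 in Sham+B12, 665.3 to 885.3 in I/R and 334.2 to 629.1 in I/R+B12. In the sham groups these ranges overlap and in the I/R groups they do not, and no tested marker was at 0 throughout a group. The additive value for this list is therefore an average of 2 unlike differences, and with Sham 3 and I/R 3 left out its sham median was -0.13.

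Complement, interferon-stimulated and antigen presentation genes also had their low medians in I/R, while the cytokine and chemokine list did not differ between surgeries in this way (-0.23 in sham and -0.22 in I/R). Complement genes (17 tested) were lower in 14 cases, a share near the 75.8% of all tested genes. Their median was -0.37 (-0.23 relative to the median gene, -0.24 as deposited without I/R+B12 3), made of 0.08 in sham and -0.86 in I/R. C1ra, a protease of the classical pathway, differed by -0.52 ± 0.15 and Serping1, its inhibitor, by -0.41 ± 0.12. Of 37 interferon-stimulated genes 34 were lower, 14 of them at an unadjusted p under 0.05 against 11.5% of all tested genes. After median-ratio scaling 5 were lower at that p, against 4.39% of all tested genes. The list had medians of -0.04 in sham and -0.67 in I/R and, over both, -0.20 relative to the median gene. Zbp1, a sensor of unusual nucleic acids, had 10.37, 11.55 and 4.17 FPKM in I/R and 3.31, 3.66 and 1.82 in I/R+B12, while Sham (1.04, 3.09 and 2.19) and Sham+B12 (1.15, 1.92 and 1.39) overlapped. Genes of antigen presentation (22 tested, 21 lower) had a median of -0.34 (-0.20 relative to the median gene, -0.54 as deposited without Sham 3). H2-DMb1, which loads peptides on class II molecules, had 7.54, 9.35 and 13.25 FPKM in I/R and 2.38, 0.96 and 0.88 in I/R+B12. Ciita, the class II transactivator, differed by -0.86 and was highest in the library labelled I/R 1, at 4.45 FPKM. Leaving out Sham 3 and I/R 3 raised the count at an unadjusted p under 0.05 from 3 to 15 of 22 for antigen presentation and from 14 to 22 of 37 for interferon-stimulated genes. Among all 13001 tested genes the lower ones at that p went from 1490 to 1565. The same omission moved the sham median from 0.09 to -0.13 for antigen presentation and from -0.04 to -0.23 for interferon-stimulated genes, where that of all genes was -0.07. Lower in both surgeries were then 17 of 22 and 31 of 37, up from 8 and 19. Among all 13001 genes 6827 were, up from 6177.

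Proliferation and sterol genes were also on the low side. All 23 tested cell cycle genes were lower, against 75.8% of all tested genes, and 20 were after median-ratio scaling. At an unadjusted p under 0.05, 4 of the 23 were lower, against 11.5% of all tested genes. Within sham hearts 10 were lower, with a median of 0.07, and within I/R hearts all 23, with a median of -0.72. Over both surgeries the median was -0.39 (-0.25 relative to the median gene), and -0.26 as deposited without I/R 1. With Sham 3 and I/R 3 left out, the sham median of the list was -0.12 and 19 of the 23 were lower in both surgeries. At an unadjusted p under 0.05, 12 were then lower, against 1565 of all 13001 tested genes. The replication helicase subunit Mcm3 differed by -0.52, the transcription factor E2f1 by -0.50 and the survivin gene Birc5 by -0.63. Of 17 cholesterol synthesis genes 15 were lower, 7 of them at an unadjusted p under 0.05, against 75.8% and 11.5% of all tested genes. After median-ratio scaling 3 were lower at that p, against 4.39%. The median as deposited was -0.26 (-0.12 relative to the median gene). Hmgcs1, which makes the precursor of mevalonate, had 6.73, 8.37 and 8.99 FPKM in Sham, 5.22, 5.65 and 6.97 in Sham+B12, 8.79, 9.65 and 10.07 in I/R, and 8.23, 5.02 and 6.26 in I/R+B12 (-0.44 ± 0.12). Idi1 (-0.45) and Cyp51 (-0.52), later enzymes of the pathway, were lower by similar amounts.

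**Figure D3:**
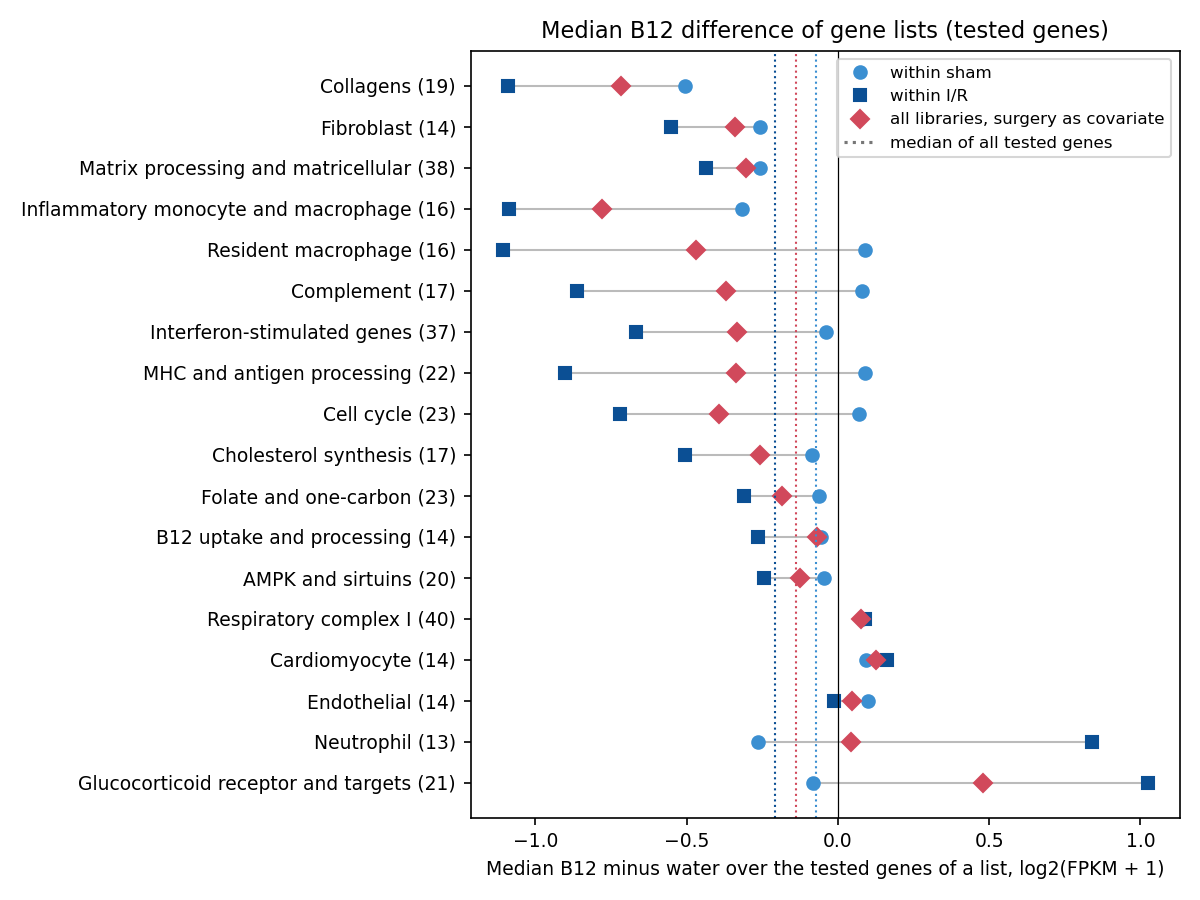
Median B12 difference over the tested genes of 18 lists (number tested in brackets), on the log2(FPKM + 1) scale: circles within sham, squares within I/R, diamonds with all libraries, and dotted lines in the same colours for the medians of all tested genes. Collagens, fibroblast and matrix genes lie left of the dotted lines in both surgeries, the macrophage, complement, interferon and antigen presentation lists do so in I/R, and the glucocorticoid and neutrophil lists lie to the right in I/R.

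The 12 genes with the smallest p among those lower with B12 included 5 collagens (Col6a1, Col15a1, Col6a2, Col1a1 and Col3a1). The others were Efna1, Helq, Fubp3, Zbtb8os, Faap20, Trub1 and Dact1. Efna1 (ENSMUSG00000027954, chromosome 3, 89271733 to 89281142), the ephrin-A1 ligand of endothelial and other cells, had 24.48, 30.6 and 23.91 FPKM in Sham, 22.82, 16.54 and 18.57 in Sham+B12, 29.9, 27.35 and 26.72 in I/R, and 18.13, 15.46 and 19.87 in I/R+B12. As deposited, every B12 library lay below every water library, and the difference was -0.53 ± 0.11, made of -0.43 in sham and -0.63 in I/R. After division by the median-ratio factors (0.930 for Sham+B12 1 and 1.01 for Sham 3), Sham+B12 1 came above Sham 3. Helq, a DNA repair helicase, differed by -0.50 ± 0.11 and Faap20, a subunit of the Fanconi anemia core complex, by -0.70 ± 0.16. The RNA-binding protein gene Fubp3 (-0.44) and the pseudouridine synthase gene Trub1 (-0.46) were lower by similar amounts in both surgeries, and the Wnt modulator gene Dact1 (-0.50) and Zbtb8os (-0.52) by more in I/R (-0.71 and -0.66) than in sham (-0.29 and -0.38). In 46 tested genes (0.354%) all 6 B12 libraries lay below all 6 water libraries, Efna1, Col6a1, Helq, Col15a1, Col6a2, Trub1 and Dact1 among them, and in 0 genes (0%) above. After median-ratio scaling the counts were 15 and 7, and Efna1, Col6a1 and Col6a2 were not among the 15.

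Among genes higher with B12 the 12 with the smallest p had unadjusted p from 0.00565 to 0.0179. Sgk1 (ENSMUSG00000019970, chromosome 10, 21882184 to 21999903), the serum- and glucocorticoid-regulated kinase, led them with 38.64, 29.18 and 56.37 FPKM in Sham, 39.61, 54 and 45.41 in Sham+B12, 49.36, 40.68 and 45.94 in I/R, and 91.66, 148.78 and 159.16 in I/R+B12. Its difference of 0.85 ± 0.25 came mainly from I/R, where the groups did not overlap, as in 3021 of the 13001 tested genes in either direction. The sham groups of Sgk1 overlapped (0.20). The sphingolipid genes Acer2, an alkaline ceramidase (0.59 ± 0.19), and S1pr1, the sphingosine-1-phosphate receptor of endothelium (0.47 ± 0.15), had the same form. S1pr1 reached 55.43, 86.13 and 77.93 FPKM in I/R+B12 against 45.32, 42.83 and 38.26 in I/R.

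The other increases were spread over both surgeries. Cntn2 (ENSMUSG00000053024, chromosome 1, 132509427 to 132543256), a cell adhesion protein that marks cardiac conduction cells, was the 1 gene with all B12 libraries higher in both surgeries (0.00769% of those tested). Its levels were low: 0.98, 1.07 and 1.01 FPKM in Sham, 1.19, 1.41 and 1.99 in Sham+B12, 0.46, 0.8 and 0.81 in I/R, and 1.55, 0.83 and 1.55 in I/R+B12. Cytl1 (0.54), a secreted cytokine-like protein, Gchfr (0.56), the feedback regulator of tetrahydrobiopterin synthesis, and Stard10 (0.34), a lipid transfer protein, differed by almost equal amounts in the 2 surgeries. The Wnt receptor Fzd6 (0.26), the cytochrome oxidase subunit isoform Cox6b2 (0.42) and Tmem52 (0.60) had their larger part in sham, and Proser2 (0.47) in I/R. Arrdc2, an arrestin-domain protein, was higher in all Sham+B12 libraries (15.74, 15.65 and 13.04 FPKM) than in Sham (12.11, 3.92 and 11.12), and in I/R+B12 1 library stood out (4.39, 6.98 and 19.44, against 3.39, 4.7 and 2.38 in I/R).

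Targets of the glucocorticoid receptor stood on the high side. Of 21 tested genes of this list 16 were higher, against 3140 of all 13001 tested genes. At an unadjusted p under 0.05, 4 of them were higher, against 0.754% of all tested genes, and the receptor gene Nr3c1 itself was lower (-0.38 ± 0.12). After median-ratio scaling 4 genes of the list were higher at that p, against 441 of all 13001. The median was 0.48, made of -0.08 in sham and 1.02 in I/R, and 0.62 relative to the median gene. Leaving out 1 library moved it to between 0.21 (without I/R+B12 2) and 0.66 (without Sham 3), and to 0.25 without I/R 3. Pdk4, the kinase that shuts pyruvate dehydrogenase, had 355.38, 114.19 and 559.56 FPKM in Sham, 369.44, 266.42 and 386.27 in Sham+B12, 74.28, 134.33 and 75.39 in I/R, and 141.62, 876.53 and 1027.94 in I/R+B12. The period gene Per1 had 12.14, 12.71 and 9.39 FPKM in I/R and 13.94, 41.23 and 61.52 in I/R+B12, with overlapping sham groups. In both genes the library labelled I/R+B12 1 lay close to the I/R libraries. With Sham 3 and I/R 3 left out, the list's sham median was 0.27 and its overall median 0.43. The summed level of the neutrophil markers ran from 104.5 to 1388 FPKM in I/R and from 192.1 to 2253 in I/R+B12, and its part in these differences was not tested.

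Genes that carry and use B12 showed no difference that passed the test. The 14 tested genes of B12 uptake and processing had a median of -0.07. Of them 11 were lower, a share near the 75.8% of all tested genes, and none had an unadjusted p under 0.05. After median-ratio scaling the median was 0.07 with 5 lower. As deposited it was -0.13 when I/R+B12 1 was left out and -0.01 when I/R+B12 2 was. Cd320, the receptor for transcobalamin-bound B12, had 17.4, 18.64 and 18.11 FPKM in Sham, 18.04, 20.41 and 20.59 in Sham+B12, 15.63, 9.68 and 12.59 in I/R, and 14.91, 16.38 and 17.44 in I/R+B12 (0.24 ± 0.11, limma adjusted p = 0.392). The carrier gene Tcn2 differed by -0.07 ± 0.14, the lysosomal exporters Lmbrd1 and Abcd4 by 0.10 ± 0.13 and -0.30 ± 0.19, the processing enzyme Mmachc by -0.14 ± 0.19, and the mutase partners Mmaa and Mmab by -0.01 ± 0.14 and -0.16 ± 0.16. Tcn2, Mmachc and Mmaa turned to positive values after median-ratio scaling.

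Both B12-dependent enzymes were lower in injured hearts. Mtr (ENSMUSG00000021311, chromosome 13, 12182712 to 12258113), methionine synthase, had 24.44, 17.96 and 14.3 FPKM in Sham, 20.19, 26.17 and 20.74 in Sham+B12, 17.99, 24.21 and 27.63 in I/R, and 17.76, 5.25 and 8.86 in I/R+B12. As deposited, the I/R+B12 libraries lay below all I/R libraries, by 1.19 on average. After division by the median-ratio factors (1.11 for I/R+B12 1 and 1.18 for I/R 1), I/R+B12 1 came above I/R 1, so these groups overlapped. I/R groups did not overlap, in either direction, in 3021 of the 13001 tested genes. The sham groups of Mtr overlapped (0.25). Over both surgeries the difference was -0.47 ± 0.31 (limma adjusted p = 0.453) and without I/R+B12 2 it was -0.22. Mmut, methylmalonyl-CoA mutase, had 19.65, 22.61 and 21.06 FPKM in Sham, 21.56, 20.94 and 24.93 in Sham+B12, 19.95, 21.63 and 24.62 in I/R, and 16.58, 9.58 and 14.51 in I/R+B12, a difference of -0.30 ± 0.17 (limma adjusted p = 0.406) that was -0.16 without I/R+B12 2. The reductase Mtrr, which reactivates Mtr, differed by -0.24 ± 0.16.

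In the folate and one-carbon list 20 of 23 genes were lower, 5 of them at an unadjusted p under 0.05, against 75.8% and 11.5% of all tested genes. After median-ratio scaling 14 were lower, 2 of them at that p. The median as deposited was -0.18 (-0.05 relative to the median gene). The folate transporter Slc46a1 differed by -0.47 ± 0.15, with 1.77, 1.62 and 1.66 FPKM in I/R and 0.8, 0.35 and 0.42 in I/R+B12. Thymidylate synthase (Tyms), which the cell cycle list also holds, had 2.14, 4.25 and 2.59 FPKM in Sham and 1.3, 1.56 and 1.46 in Sham+B12 (-0.64 ± 0.24 overall). For the energy sensors, the AMPK and sirtuin list (20 tested) had a median of -0.13 (0.01 relative to the median gene and after median-ratio scaling). The regulatory subunits Prkab1 (-0.27 ± 0.09) and Prkag2 (-0.58 ± 0.21) were lower, while the catalytic subunits Prkaa1 (-0.13 ± 0.12) and Prkaa2 (-0.12 ± 0.17), the mitochondrial deacetylase Sirt3 (0.00 ± 0.12) and the coactivator Ppargc1a (0.21 ± 0.12) differed by less than 2 SE.

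Cardiac stress genes varied widely between libraries of 1 group. Myh7 (ENSMUSG00000053093, chromosome 14, 54970684 to 54994626), the slow myosin heavy chain that rises in stressed mouse ventricle, differed by -1.76 ± 0.54. Its FPKM was 24.95, 59.46 and 361.67 in Sham, 45.54, 12.23 and 27.49 in Sham+B12, 176.13, 64.77 and 63.9 in I/R, and 22.11, 27.58 and 23.91 in I/R+B12. Without the library labelled Sham 3 the difference was -1.29. The atrial natriuretic peptide gene Nppa had 3156.53 FPKM in that library and 178.1 to 706.68 in the other 5 water libraries, against 210.64 to 364.17 in B12 libraries, and its difference of -1.23 ± 0.53 became -0.72 without it. Nppb, the ventricular natriuretic peptide, differed by -0.05 ± 0.57 and had its highest value, 2038.81 FPKM, in I/R+B12 2. Myh6, the fast chain of adult ventricle, differed by 0.20 ± 0.16. Of 14 cardiomyocyte markers 12 were higher with B12, against 3140 of all 13001 tested genes. None was higher at an unadjusted p under 0.05, and 1, the calcium pump inhibitor gene Pln (-0.38), was lower at that p. The median of the 14 was 0.12 (0.26 relative to the median gene). It was 0.28 with 1 lower after median-ratio scaling and 0.06 with 5 lower after quantile normalization. The 40 tested genes in the complex I list had a median of 0.08 (0.21 relative to the median gene). Of these 35 were higher, against the same share of all genes, and 1, Ndufa4l2 (-0.68), was lower at that p. Without I/R+B12 3 the 2 medians as deposited were 0.06 and 0.03, and without Sham 3 that of complex I was 0.04.

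The additive model averages 2 comparisons that share no library, so they can be set side by side. Within sham hearts no gene passed and 558 genes (4.29%) had an unadjusted p under 0.05. Within I/R hearts 2 genes passed, the pseudogene Morf4l1-ps1 and the noncoding RNA Snhg9 (0.0154%), both higher with B12 and at 0 FPKM in several libraries, and 2213 (17.0%) had an unadjusted p under 0.05. The calls in I/R numbered 0 when I/R 1, I/R 2, I/R+B12 2 or I/R+B12 3 was left out, with no filter or a filter of 5 FPKM, and with a replicate block. Across the 13001 genes the sham and I/R differences were unrelated (Pearson r = -0.06), as a description, since genes of a library are not independent. Their signs matched for 55.3% of genes, 47.5% being lower in both and 7.83% higher in both, and for 47.1% after median-ratio scaling. Of 440 genes lower in sham at an unadjusted p under 0.05, 68.0% were lower in I/R, where 71.8% of all genes were. Separation of all 3 B12 from all 3 water libraries in both surgeries was seen for 165 genes downward and 1 upward, and after median-ratio scaling for 48 (0.369%) and 28 (0.215%).

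**Figure D4:**
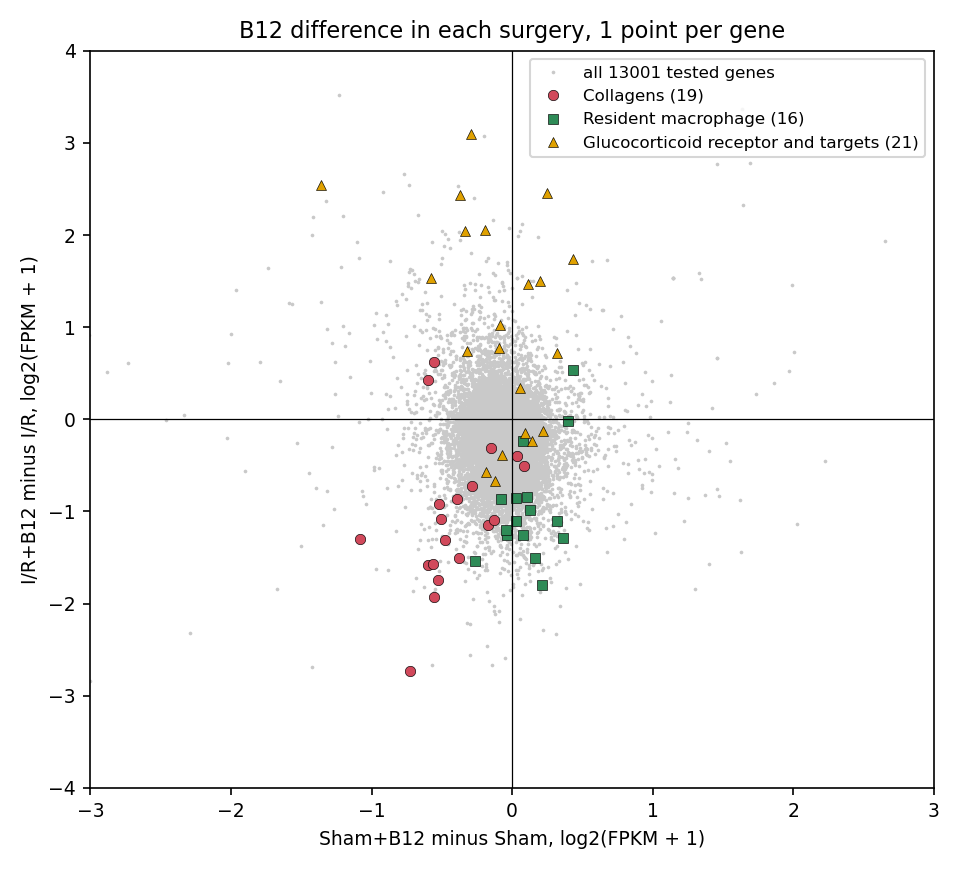
B12 difference within sham (horizontal axis) and within I/R (vertical axis), log2(FPKM + 1), 1 point per tested gene, with 5 genes beyond the axes. Most collagens (red circles) lie low on both axes, resident macrophage genes (green squares) lie low in I/R and near 0 in sham, and many glucocorticoid targets (yellow triangles) lie high in I/R alone.

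The test of the difference between the surgeries called no gene (0%; smallest limma adjusted p 0.387), with 1595 genes (12.3%) at an unadjusted p under 0.05. Of the total variance of the tested genes, B12 held 11.8%, surgery 24.3%, the interaction 10.7% and the remainder between libraries of 1 group 53.2%. Genes with small interaction p included C3, Smad6, C1s1, Cyp1a1 and Pfkfb2. C3 (ENSMUSG00000024164, chromosome 17, 57203970 to 57228136), the central complement protein, had 52.46, 62.57 and 39.69 FPKM in Sham, 60.56, 77.21 and 86.81 in Sham+B12, 80.96, 82.77 and 54.8 in I/R, and 35.36, 29.5 and 32.71 in I/R+B12. Cyp1a1, a xenobiotic-metabolising enzyme under the aryl hydrocarbon receptor, had 8, 14.65 and 6.94 FPKM in Sham+B12 and 0.12 to 1.96 FPKM in every other library. Smad6, an inhibitor of BMP signalling, was higher with B12 in I/R alone (12.03, 13.84 and 17.65 against 7.03, 5.28 and 5.71 FPKM). The interaction was 1.27 for Smad6, -1.17 for the complement protease C1s1, -1.66 for C3 and -2.68 for Cyp1a1, with a limma adjusted p of 0.387 for each.

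**Figure D5:**
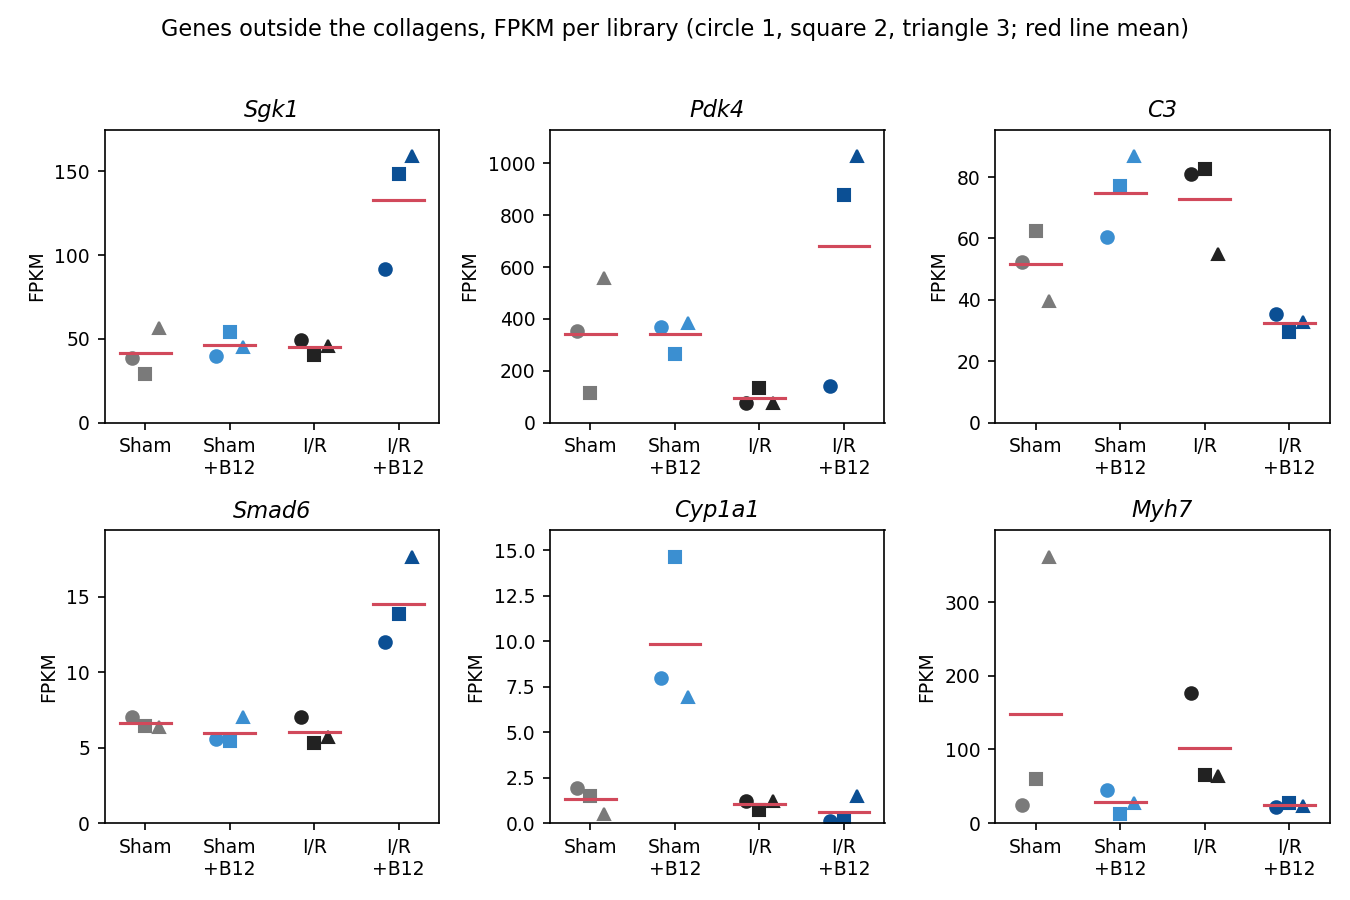
FPKM of 6 genes in each library (vertical axes from 0, in FPKM), by group, with 1 symbol per library and a red line at the group mean of 3. Sgk1 and Pdk4 are highest in I/R+B12 2 and 3, C3 is lowest in I/R+B12, Smad6 is highest in I/R+B12, Cyp1a1 is highest in Sham+B12, and Myh7 is highest in the library labelled Sham 3.

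The count of calls rested on the library labelled I/R+B12 1. Without it B12 against water still had no called gene (smallest limma adjusted p 0.172), with 3030 genes at an unadjusted p under 0.05. The I/R contrast, now 2 libraries against 3, had 2581 called genes (19.9%), 2328 lower (17.9%) and 253 higher (1.95%), and the interaction had 1830 (14.1%). Of 19 collagens 12 were called lower and 1 higher in that contrast. So were 12 of 16 resident macrophage markers, 12 of 17 complement genes, 19 of 37 interferon-stimulated genes and 6 of 14 fibroblast markers, all lower, whereas 7 of 38 matrix genes (18.4%) and 3 of 16 from the inflammatory monocyte list (18.8%) were near the share of all tested genes. Called too were 9 of 22 antigen presentation genes, all lower, and 7 of 21 glucocorticoid genes, all higher, with 1 more lower. The 2 remaining I/R+B12 libraries are assumed there to vary like the other groups. With Sham 3 and I/R 3 left out, no gene was called for B12 against water, and 1683 had an unadjusted p under 0.05.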

How the data were processed

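Heart RNA was measured in 12 poly(A)-selected, paired-end libraries. The authors deposited 1 table of FPKM for 55487 genes, with the unit taken from the table's name and its values, and group mean columns that were not used. HISAT2, StringTie and the build mm10 are named per the submitters' processing notes, and versions and annotation release are not given in the sources used here. FPKM are relative to each library's total, so transcripts that take a large share lower all others. Depth was inferred from the spacing of low FPKM values, with the transcript length of single-transcript genes reduced by a fitted 240 to 265 nt. Of these values 78.2% to 86.1% fell within 0.15 of a whole number, too few to recover counts, and 1 FPKM in 1500 nt stood for 29.6 to 34.7 fragments. These are estimates that cover counting error only.

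Tests used log2(FPKM + 1) and the genes that reached 1 FPKM in 3 libraries or more. B12 against water was fitted with limma 3.58.1 in R 4.3.3, with surgery as covariate and a variance trend, over all 12 libraries. P-values were two-sided and Benjamini-Hochberg adjusted over all tested genes, and a gene was called under 0.05. The same test was run within each surgery alone and for the interaction. Lists (61) are described by counts and medians and were not tested. The members and lists were chosen with earlier results of these data known. Named were the 12 increases and 12 decreases with the smallest p and a mean FPKM of 1 or more, per list up to 4 members by lowest p, the 6 genes with the smallest interaction p, a fixed set of B12, AMPK and cardiac stress genes, and 4 genes said to be chosen after their values were seen. Predicted and clone-named genes were left out. A few of these genes are left out of the text. Simulated data with known changes served to test the fit.

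Coordinates are from GENCODE M21 (GRCm38), which holds 55227 of the table's identifiers. Median-ratio scaling divided each library by its median ratio to the geometric mean over genes above 0 in all libraries. Across 5 bins of transcript length the median difference ran from -0.11 to -0.15, and across 5 bins of GC content from -0.12 to -0.17. Other pseudocounts, filters, scalings, library weights, a replicate block, other models and each library left out in turn were tried. Leaving out the libraries labelled Sham 3 and I/R 3, or I/R+B12 1 and Sham 3, was added after seeing the data. Figures were drawn with matplotlib 3.10.9.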

Additional observations from a re-analysis of the deposited data

Results flagged for a closer look

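In 3 genes named here all B12 libraries lay on 1 side of the water libraries in sham hearts and all on the other side in injured hearts. The difference between the 2 surgeries was 1.33 for Cldn5, a tight junction protein of endothelium, -1.08 for Pfkfb2, the cardiac isoform of the enzyme that makes fructose 2,6-bisphosphate, and 1.18 for Col4a1. Cldn5 had 33.61, 38.55 and 31.6 FPKM in Sham, 26.3, 29.04 and 29.27 in Sham+B12, 38.05, 30.74 and 36.1 in I/R, and 40.16, 112.95 and 85.84 in I/R+B12. Pfkfb2 had 2.5, 2.58 and 3.21 FPKM in Sham, 3.83, 3.91 and 4.6 in Sham+B12, 2.72, 3.23 and 3.29 in I/R, and 2.07, 1.34 and 1.5 in I/R+B12. None passed limma's interaction test (adjusted p = 0.387 for each). The pattern down in sham and up in I/R was seen in 74 of the tested genes (0.569%) and the reverse in 27 (0.208%).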

How the results depend on the processing

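No gene was called for B12 against water under any of the 28 alternatives. The genes at an unadjusted p under 0.05 numbered 1588, and 968 with a filter of 5 FPKM, 1012 after median-ratio scaling (56.42% lower, against 93.83%), 928 after quantile normalization (52.69% lower) and 3671 without I/R+B12 1 and Sham 3. With each library left out in turn they numbered 798 to 3030, with 801 when I/R 1 was left out, 812 for I/R 2, 926 for I/R+B12 2, 798 for I/R+B12 3 and 3030 for I/R+B12 1. The median of all genes was -0.0253 with no filter, -0.0061 after median-ratio scaling and -5e-04 after quantile normalization. Calls in I/R, 2 as reported, were 1 with a pseudocount of 0.1 or 0.5, with a filter in 6 libraries or after median-ratio scaling, 0 with no filter or a filter of 5 FPKM, 3432 with library weights (whose estimation stopped before convergence), 0 to 2581 with a library left out, 0 when I/R 1, I/R 2 or either of the later I/R+B12 libraries was the one left out, and 2581 without I/R+B12 1 and Sham 3. Calls in sham were 1 with a pseudocount of 0.1, 4 with no filter, 2 with library weights, 0 to 2 with a library left out, and 1 without either added pair of libraries. Interaction calls were 1 with no filter, 1838 with library weights, 0 to 1830 with a library left out, 2 without Sham 3 and I/R 3, and 1316 without I/R+B12 1 and Sham 3. Genes separated downward in both surgeries, 165, were 109 with a filter of 5 FPKM, 48 and 39 under median-ratio and quantile scaling, 186 to 529 with a library left out, and 792 and 1173 without the 2 pairs, where fewer libraries have to separate. Genes separated upward, 1, were 7 with no filter, 0 with a filter of 5 FPKM, 28 and 36 under the 2 scalings, 3 with nuclear genes alone, 2 to 29 with a library left out, and 38 and 51 without the pairs. The correlation of the sham and I/R differences across genes, -0.06, was 0.0675 with library weights, -0.2132 to 0.1644 with a library left out (-0.2132 without Sham 2, 0.1644 without Sham 3), and 0.1573 and 0.1478 without the pairs. Deviations of same-numbered libraries had a mean r of 0.0144 over 18 pairs (from -0.4121 to 0.3911), against -0.0087 over the 36 other pairs. The 6 same-numbered pairs of a B12 and a water library within 1 surgery had a mean r of 0.1368. With 3 libraries per group these values cannot show whether the numbers pair the libraries. With the replicate number as a block, 1488 genes had an unadjusted p under 0.05 and 0 were called in I/R. Of 112 named genes, 102 kept their direction throughout. The others were small differences: after median-ratio scaling Col4a2 was 0.0734, Pfkfb2 0.0165, Tcn2 0.0853, Mmachc 0.013, Mmaa 0.1422, Nppb 0.1108, Sirt3 0.1492 and Prkaa2 0.0263; after quantile normalization Pfkfb2 was 0.1082, Tcn2 0.022, Mmaa 0.1214, Sirt3 0.0902, Prkaa1 0.0459 and Prkaa2 0.0281; with library weights Col4a1 was -0.1418, Pfkfb2 0.1767, Tcn2 0.0545, Mmachc 0.0282, Mmaa 0.0635, Sirt3 0.0297 and Prkaa2 0.0772. Nppb was 0.2801 without Sham 3 and I/R 3 and 0.5229 without I/R+B12 1 and Sham 3. With a library left out Col4a1 ran from -0.1022 to 0.1552, Col4a2 ran from -0.1963 to 0.0575, Nppb ran from -0.551 to 0.3785, Mmaa ran from -0.0762 to 0.0852, Sirt3 ran from -0.0713 to 0.0793, Tcn2 ran from -0.1376 to 0.0429, Mmachc ran from -0.2157 to 0.046 and Prkaa2 ran from -0.1972 to 0.045. The cause of these changes was not tested. Depth limits low genes such as Cd209a and Cntn2 most.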

Other observations

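Further groups held genes at an unadjusted p under 0.05, none of which passed limma's adjusted test (adjusted p = 0.392 for each). In the circadian clock the repressor gene Nr1d1 differed by -0.58 ± 0.19 with B12, while Cry1, a repressor of the opposite limb, differed by 0.45 ± 0.20, and the output factor gene Dbp by -1.03 ± 0.47, made of 0.22 in sham and -2.29 in I/R. Among genes of protein folding in the endoplasmic reticulum, Sdf2l1 (-0.95 ± 0.39), Creld2 (-0.67 ± 0.30) and the disulfide isomerases Pdia6 (-0.49 ± 0.21) and Pdia3 (-0.37 ± 0.15) were lower, each with its larger part in I/R. In the cell death list the apoptosis initiator Casp9 (-0.43 ± 0.15) and the regulators Bcl2 (-0.38 ± 0.14), Bid (-0.42 ± 0.18) and Bok (-0.46 ± 0.20), which do not all act in 1 direction, were lower.

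Other large differences came mainly from injured hearts. Inmt, an amine methyltransferase, had 37.93, 66.43 and 52.94 FPKM in Sham, 42.95, 51.64 and 46.84 in Sham+B12, 21.77, 7.62 and 40.78 in I/R, and 9.63, 1.79 and 2.38 in I/R+B12, with overlap in both surgeries. Gamt, which makes creatine, differed by -0.57 ± 0.24, made of -0.05 in sham and -1.08 in I/R. The lipid transporter Abca8a had 32.81, 37.35 and 35.24 FPKM in I/R and 16.38, 1.76 and 3.47 in I/R+B12, and differed by -0.05 in sham.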
